A study of Mus musculus with 26 samples.

Results

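Enpp2 and 9 genes that organise lymphoid follicles or guide lymphocytes to them were measured in mouse colon across 8 groups of diet and day. The 10 genes are Enpp2, the chemokine genes Cxcl13, Ccl19 and Ccl21a, the chemokine receptor genes Cxcr5 and Ccr7, the lymphotoxin genes Lta and Ltb, and the venule genes Madcam1 and Glycam1. They are 10 of the 35928 gene symbols to which transcripts were summed, and all 10 were among the 17049 genes that passed the filter on low counts. They were chosen by measured values, since the levels of these genes in the day 70 samples on both diets were known when the list was drawn up. Levels and fold changes that involve day 70 are therefore given for these genes as a description, without a test.

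Lymphoid follicles of the gut wall are clusters of B cells around a network of stromal cells, with T cells beside them. Stromal cells secrete CXCL13, which draws in B cells that carry the receptor CXCR5, and CCL19 and CCL21, which draw in T cells and dendritic cells that carry the receptor CCR7. Lymphocytes in turn make the lymphotoxins that keep these stromal cells and the venules in shape, and the venules display addressins that lymphocytes bind when they leave the blood. Enpp2 encodes autotaxin, a secreted enzyme that makes lysophosphatidic acid, a lipid that also promotes lymphocyte entry at such venules.

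The study followed colon tumour development in wild-type C57BL/6J male mice from Taconic, about 10 weeks old at the start, fed a standard diet or a diet with GW3965, a synthetic agonist of the liver X receptors (LXR), which sense oxysterols. Tumours were induced by azoxymethane (AOM), a carcinogen injected at 10 mg per kg, followed by dextran sulfate sodium (DSS). DSS, an irritant of the colon lining, was given in the drinking water for 7 days in each of up to 3 cycles. By the paper's schedule the first cycle was over by day 22 and all 3 only by day 70. Later days thus followed more DSS, and day and DSS exposure cannot be told apart. Polyadenylated RNA from pieces of colon was sequenced in 26 samples, so each value is an average over all cells of the piece. The paper states that biopsies for RNA came from distal colon, at the place of tumours. It saw no macroscopic tumours at day 22, tumours nearly only on the standard diet at day 43, and tumours on both diets, to different extents, at day 70. Tumour content of the pieces was not measured here, so it cannot be told apart from diet or day. The comparisons ask how the genes differ between diets at each day and between each day and untreated colon on the same diet.

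Untreated colon, called day 0, was represented by 4 mice on each diet that received neither AOM nor DSS, and 2 of the 4 had been fed for 22 days and the other 2 for 43 days. These controls are named by days of feeding and number, as in 22d-1 or 43d-2. Treated colon was sampled 22, 43 and 70 days after AOM, with 3 mice per diet and day. The groups are called STD for the standard diet and GW for the GW3965 diet, followed by the day. All STD mice of days 22 and 43 came from cage A, all GW mice of those days from cage B, and the controls from cages E and F, so that diet and cage cannot be told apart at days 0, 22 and 43. Since the controls and the treated mice of days 22 and 43 shared no cage, treatment and cage cannot be told apart either in the comparisons of those days with day 0. At day 70 each of the 6 mice had a cage of its own, and none shared a cage with the controls. These mice were also older and longer on their diet than any control. Treatment, cage, age and time on the diet therefore cannot be told apart in the comparisons of day 70 with day 0. The title and the diet label of control GW 43d-2 contradict each other, and it was placed by its title.

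Total estimated counts per sample ran from 18195345 to 41522204, and the median was 20424701. STD day 43 replicate 1 had the largest total and also an RNA integrity number of 2.6, while all other samples had 6.8 or higher. Ribosomal protein genes took between 10.0% and 18.6% of the counts in the 6 samples of day 43 and between 3.96% and 10.7% in the other 20 samples, so this percentage was a term of the model. Levels are given as CPM, counts scaled to the library total adjusted by TMM, and levels of different genes are compared only as TPM, which are also scaled to transcript length. Markers of colon epithelium (Epcam, Cdh1, Krt8, Krt20 and Vil1) were present in every sample, with a summed level between 2089 and 13061 CPM.

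In GRCm38 coordinates, Enpp2 (ENSMUSG00000022425) lies on the minus strand at chr15:54838901-54952892. Among the chemokine genes, Cxcl13 (ENSMUSG00000023078) lies at chr5:95956951-95961068 on the plus strand. Ccl19 (ENSMUSG00000071005, chr4:42754525-42756577) and Ccl21a (ENSMUSG00000094686, chr4:42772860-42773993) are neighbours on the minus strand of chromosome 4. The receptor genes Cxcr5 (ENSMUSG00000047880, chr9:44511787-44561877) and Ccr7 (ENSMUSG00000037944, chr11:99144196-99155077) are both on a minus strand. Ltb (ENSMUSG00000024399, chr17:35194439-35196320, plus strand) and Lta (ENSMUSG00000024402, chr17:35203165-35205351, minus strand) are close neighbours as well. Madcam1 (ENSMUSG00000020310) occupies chr10:79664559-79668537 on the plus strand, and Glycam1 (ENSMUSG00000022491) chr15:103562759-103565081 on the minus strand.

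Most members were read from a single main transcript. Enpp2-201 held 84.8% of the Enpp2 TPM summed over the 26 samples and Enpp2-204 held 6.95%. Cxcr5-201 held 83.9% of the Cxcr5 TPM and Ccl19-201 held 87.0% of the Ccl19 TPM. Only Madcam1 was split between 2 main forms, with 68.0% on Madcam1-201 and 32.0% on Madcam1-202. Ccl21a has near-identical copies (Ccl21b, Ccl21c, Gm10591, Gm13304 and Gm21541), and Ccl21a took between 59.9% and 80.6% of the counts summed over these copies, so the level of Ccl21a depends on how reads were divided among them.

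The set of promoter sequences used here, from RefSeq (GRCm38.p6), held 7 of the 10 genes, namely Cxcl13, Ccl19, Ccl21a, Lta, Ltb, Madcam1 and Glycam1. It had no entry for Enpp2, Cxcr5 and Ccr7. The 250 bases before each start were searched on both strands for AGGTCA, the half-site bound by LXR and other nuclear receptors, for a pair of such half-sites with 4 bases between them, and for the kappa-B motif of NF-kB, the transcription factor downstream of the lymphotoxin receptor. These starts are those of the promoter set. The windows of Ltb, Ccl19 and Ccl21a therefore reach into the gene coordinates printed above. AGGTCA occurred in 14% of 32851 promoters and in 1 of the 7, that of Cxcl13, at position -87. The pair occurred in 0.0152% of all promoters and in 0 of the 7. The kappa-B motif occurred in 7.25% of all promoters and in 2 of the 7, Ltb at position -87 and Madcam1 with 2 matches. These 3 promoters are printed because they hold a match to a motif of the drug's receptor or of the lymphotoxin pathway. They run 5′ to 3′ on the plus strand, from chr5:95956689-95956938 for Cxcl13, chr17:35194257-35194506 for Ltb and chr10:79664309-79664558 for Madcam1. Matches are in capitals. In all 3 promoters they lie on the opposite strand, so the capitals are the reverse complement of the motif. A match is a description of letters and not a binding site.
Cxcl13: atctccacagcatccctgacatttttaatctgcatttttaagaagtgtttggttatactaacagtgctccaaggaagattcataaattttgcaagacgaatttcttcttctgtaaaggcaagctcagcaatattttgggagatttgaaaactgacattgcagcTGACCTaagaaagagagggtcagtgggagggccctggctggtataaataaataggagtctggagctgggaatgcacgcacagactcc
Ltb: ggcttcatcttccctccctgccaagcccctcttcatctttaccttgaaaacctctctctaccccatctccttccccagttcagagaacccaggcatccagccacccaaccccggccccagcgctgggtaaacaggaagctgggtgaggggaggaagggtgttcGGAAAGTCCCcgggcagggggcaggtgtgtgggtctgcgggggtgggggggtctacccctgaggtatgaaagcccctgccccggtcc
Madcam1: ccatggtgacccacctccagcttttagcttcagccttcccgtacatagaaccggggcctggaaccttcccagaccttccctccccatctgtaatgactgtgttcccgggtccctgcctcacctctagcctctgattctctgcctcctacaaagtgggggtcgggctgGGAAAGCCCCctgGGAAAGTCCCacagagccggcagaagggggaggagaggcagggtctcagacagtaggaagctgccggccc

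Ccl21a was the most abundant of the 10 genes, with a median over the 26 samples of 294 TPM. Cxcl13 followed at 34.3 TPM, Ltb at 27.4, Ccl19 at 15.6, Enpp2 at 14.4 and Glycam1 at 13.3 TPM. Madcam1 (7.81 TPM), Ccr7 (5.06 TPM), Cxcr5 (3.58 TPM) and Lta (1.07 TPM) were lower. This order of medians over all samples did not hold in each group. In untreated colon the mean of Enpp2 exceeded that of Ltb, at 21.4 against 13.8 TPM on the standard diet and 25.3 against 18.3 TPM on GW3965. The range across samples also differed by gene. Enpp2 spanned 9.23 to 80 CPM, a ratio of 8.67, and Ccl21a 52.2 to 531 CPM, a ratio of 10.2, whereas Ccl19 spanned 0.0423 to 46.3 CPM and Cxcr5 0.127 to 32.3 CPM.

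**Figure D1:**
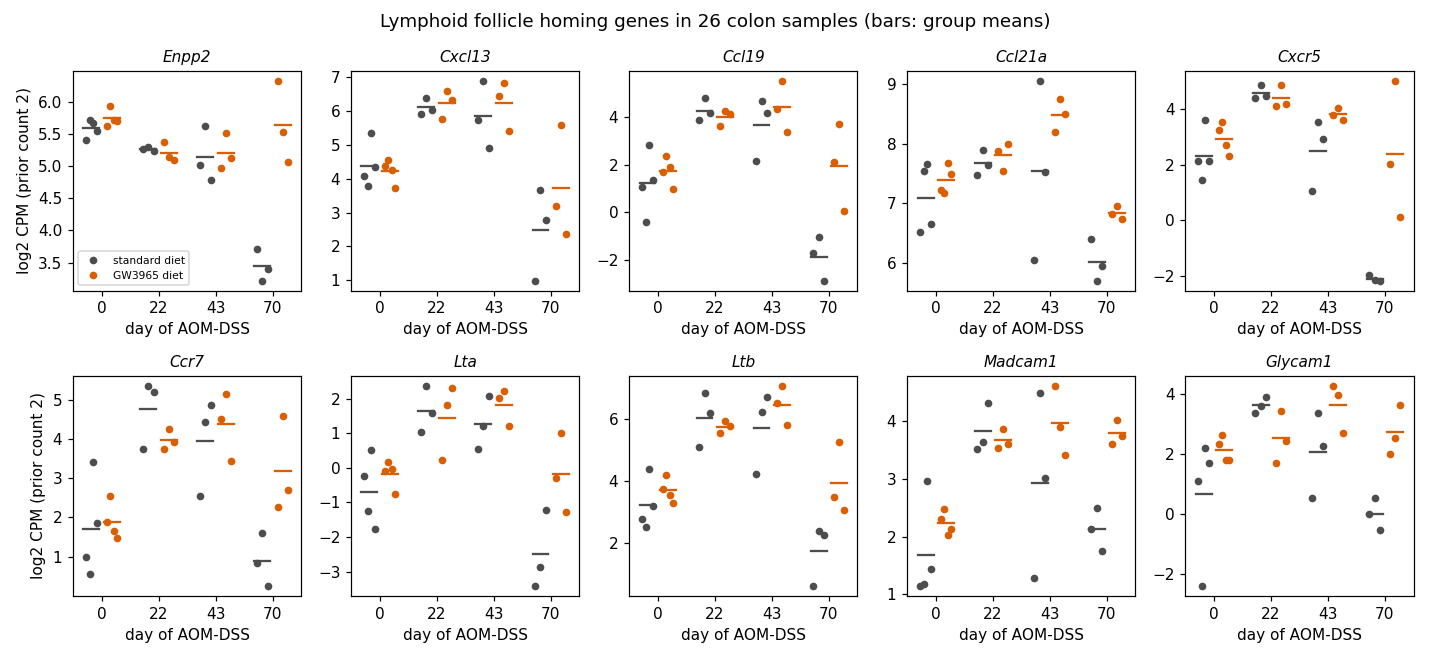
Level of each of the 10 genes (y axis, log2 CPM with a prior count of 2) by day of AOM-DSS (x axis) on the standard diet (grey) and the GW3965 diet (orange); each point is a sample and each bar a group mean. Enpp2 lay between 27.3 and 80 CPM outside the 3 standard diet samples of day 70, while the other genes were higher at days 22 and 43 than at day 0 in most samples.

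On both diets the mean level of Enpp2 in CPM was lower at days 22 and 43 than in untreated colon, and that of each of the other 9 genes was higher. In TPM this also held except for Cxcr5, which was lower at day 43 on both diets, and Ccl21a, which was lower at day 43 on the standard diet and at day 22 on GW3965. On the standard diet the 4 controls (22d-1, 22d-2, 43d-1, 43d-2) had 42.2, 52.6, 50.7 and 46.6 CPM, and on the GW3965 diet 49.1, 60.9, 52.6 and 51.8 CPM. At day 22 the 3 STD samples had 38.4, 39.1 and 37.5 CPM and the 3 GW samples 41.3, 35.3 and 33.9 CPM. Every day 22 sample thus lay below every control of its diet, by a small margin. At day 43 the values were 32.2, 49.4 and 27.3 CPM for STD and 31.4, 45.4 and 34.8 CPM for GW, and at day 70 they were 13, 9.23 and 10.5 CPM for STD and 80, 46.2 and 33.4 CPM for GW. The STD samples of day 70 were the lowest of all 26, and GW day 70 replicate 1 was the highest.

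Ordered by mean CPM, the groups ran from GW day 0 (53.6 ± 5.08, SD, n = 4) and GW day 70 (53.2 ± 24.1, n = 3) through STD day 0 (48.0 ± 4.61, n = 4), STD day 22 (38.3 ± 0.841, n = 3), GW day 43 (37.2 ± 7.33, n = 3), GW day 22 (36.8 ± 3.91, n = 3) and STD day 43 (36.3 ± 11.6, n = 3) to STD day 70 (10.9 ± 1.94, n = 3). Neighbours in this order did not differ beyond their spread, with the exception of STD day 0 above STD day 22 and of STD day 43 above STD day 70. In TPM, GW day 0 was again highest (25.3 ± 4.33) and STD day 70 lowest (5.13 ± 1.13), and 6 of the 8 groups kept their rank. Day 43 was lower on the TPM scale than on the CPM scale relative to day 22, at 7.38 ± 3.05 for STD and 8.91 ± 2.36 for GW against 14.3 ± 0.289 and 12 ± 3.05 at day 22.

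**Figure D2:**
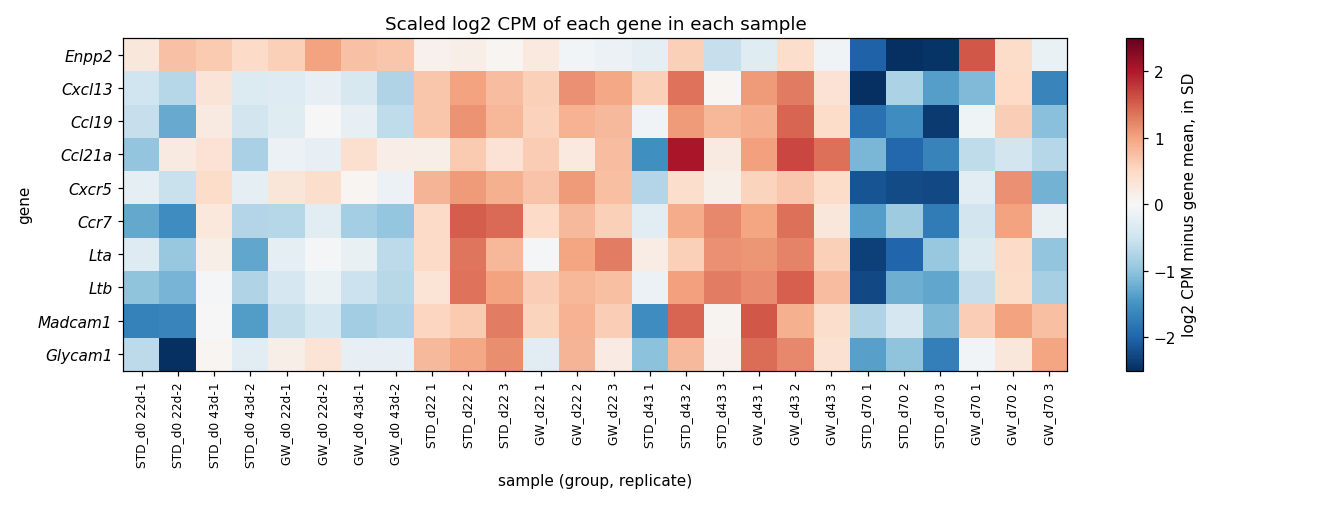
Each square is the log2 CPM of a gene (y axis) in a sample (x axis) minus the mean of that gene over the 26 samples, in units of its standard deviation. The 9 genes under Enpp2 are mostly above their means at days 22 and 43, with STD day 43 replicate 1 lower than its neighbours for most of them, and the 3 STD day 70 columns are below the mean for all 10 genes, least so for Madcam1.

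In untreated colon none of the 10 genes passed the test between diets. Enpp2 differed by a log2 fold change of 0.17 ± 0.21 (SE) and Glycam1, a ligand for the lymphocyte adhesion receptor L-selectin, by 0.86 ± 0.68. Mean levels of Glycam1 were 4.45 ± 1.33 CPM on GW3965 and 2.44 ± 1.85 CPM on the standard diet, with overlapping samples. The fold change was positive for 8 of 10 genes, with a median of 0.26 against -0.02 over all genes. With edgeR's quasi-likelihood test and Benjamini-Hochberg adjustment 0 of 10 genes passed, 0 had an unadjusted p under 0.05 and DESeq2 called 0, where 0.0293% of all genes tested passed. The samples of the 2 diets overlapped for all 10 genes, while 2.28% of all genes did not overlap. With a ribosomal slope of its own in each group all 8 positive values turned negative, from -0.63 for Enpp2 to -4.81 for Cxcr5.

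One untreated mouse had higher levels of several of these genes than the others of its group. Control STD 43d-1 had the highest level in its group of Cxcl13 (40.6 CPM, against 16.9, 13.6 and 20.1 in the other 3), of Cxcr5 (12 against 4.33, 2.60 and 4.31 CPM) and of Ccr7 (10.6 against 1.88, 1.37 and 3.52 CPM). Its B cell markers summed to 205 CPM against 48.1, 33.0 and 61.0 CPM, and whether that accounts for its levels was not tested. In bulk tissue, more cells of a type in the piece and more RNA per cell cannot be told apart, here or in any of the comparisons that follow.

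By day 22 on the standard diet, after the first course of DSS, most of the homing genes were higher in treated than in untreated colon, and Ltb, Ccr7 and Madcam1 passed the test. Ltb, which encodes the membrane anchor of the lymphotoxin complex, had 33.9, 114 and 73.6 CPM in the 3 mice of day 22 and 6.64, 5.57, 20.9 and 9.11 CPM in the 4 controls. All 3 treated mice lay above all 4 controls. Ltb rose by a log2 fold change of 2.51 ± 0.60, with an adjusted p of 0.0131 by edgeR's quasi-likelihood test.

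Ccr7, the receptor with which T cells and dendritic cells follow CCL19 and CCL21, had 13.2, 40.8 and 36.6 CPM at day 22 against 1.88, 1.37, 10.6 and 3.52 CPM. The lowest treated mouse was only slightly above control 43d-1. Ccr7 rose by 2.54 ± 0.68 on the log2 scale (edgeR's quasi-likelihood test, adjusted p = 0.0249), higher in 3 of 3 mice than in any control. Madcam1, the gut venule ligand for the integrin alpha4beta7, had 11.4, 12.4 and 19.8 CPM against 2.12, 2.17, 7.70 and 2.62 CPM. The groups again did not overlap, and Madcam1 rose by 2.05 ± 0.54 (edgeR's quasi-likelihood test, adjusted p = 0.0228). Without control 43d-1 the log2 fold change was 3.44 for Ccr7 and 2.77 for Madcam1.

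The other ligands and receptors were also higher but did not pass. Ccl19 had 14.6, 27.7 and 18.1 CPM at day 22 against 2.03, 0.661, 7.02 and 2.48 CPM, without overlap, and its log2 fold change of 2.5 ± 0.77 had an adjusted p of 0.05003 by edgeR's quasi-likelihood test. Cxcr5, the B cell receptor for CXCL13, had 21, 29.4 and 22.3 CPM against 4.33, 2.60, 12 and 4.31 CPM, and its difference of 2.10 ± 0.76 had an adjusted p of 0.0994 in the same edgeR test. Glycam1 (2.29 ± 0.75), Lta (1.95 ± 0.71) and Cxcl13 (1.51 ± 0.65) also separated the groups. Ccl21a (0.54 ± 0.43) overlapped, and Enpp2 was lower without passing (-0.28 ± 0.24).

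In all, 3 of 10 genes passed at day 22 on the standard diet, where 7.77% of all genes did. An unadjusted p under 0.05 was found for 8 of 10, and for 3577 of all 17049 genes. DESeq2 called 7, among 2037 of all genes. The groups did not overlap for 9 genes, 8 higher and Enpp2 lower, against 26.9% of all genes. The median log2 fold change of the 10 genes was 2.08, and that of all genes tested -8e-04. The count rests on single mice: it was 0 without STD day 22 replicate 2 or without replicate 3, 1 (Ltb) without control 22d-1, 22d-2 or 43d-2, and 4 without control 43d-1. With a ribosomal slope of its own in each group 0 genes passed and 7 of the 10 values turned negative, among them Ccr7 (-0.70) and Madcam1 (-1.47), while Ltb (0.46) and Glycam1 (1.20) stayed positive.

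On the GW3965 diet most of the homing genes were also higher at day 22 than in untreated colon. Ltb had 46.9, 60.8 and 55.2 CPM at day 22 and 13.4, 18.3, 11.6 and 9.69 CPM in the controls, a log2 fold change of 1.69 ± 0.59. Cxcl13 had 53.9, 95.4 and 79.6 CPM against 20.5, 23.2, 18.9 and 13.2 CPM, a log2 fold change of 1.88 ± 0.68. The treated mice lay well above the controls for both genes. Madcam1 had 11.5, 14.5 and 12.1 CPM against 4.86, 5.45, 3.97 and 4.27 CPM, with a log2 fold change of 1.56 ± 0.56. Glycam1 overlapped between the groups, at 3.15, 10.6 and 5.21 CPM against 4.96, 6.10, 3.35 and 3.38 CPM. Its log2 fold change of 0.46 turned to -0.28 without GW day 22 replicate 2. Under the setting that moved each most, Ltb was at 3.67 and Cxcl13 at 3.17, while Ccl21a turned from 0.47 to -0.73.

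With edgeR's quasi-likelihood test, 0 of 10 genes passed on the GW3965 diet at day 22, where 12.6% of all genes passed. In that test 5 had an unadjusted p under 0.05, as did 4537 of all 17049 genes. DESeq2 called 3, namely Cxcl13, Ltb and Madcam1, among 2936 of all genes. The groups did not overlap for 8 genes, 7 higher and Enpp2 lower, while 48.2% of all genes did not overlap, so that the separation by itself does not mark these genes. The smallest adjusted p in the edgeR test was 0.0667, for Ltb. The days 22 and 43 of a diet were compared with the same 4 controls, so their fold changes share the error of those controls.

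**Figure D3:**
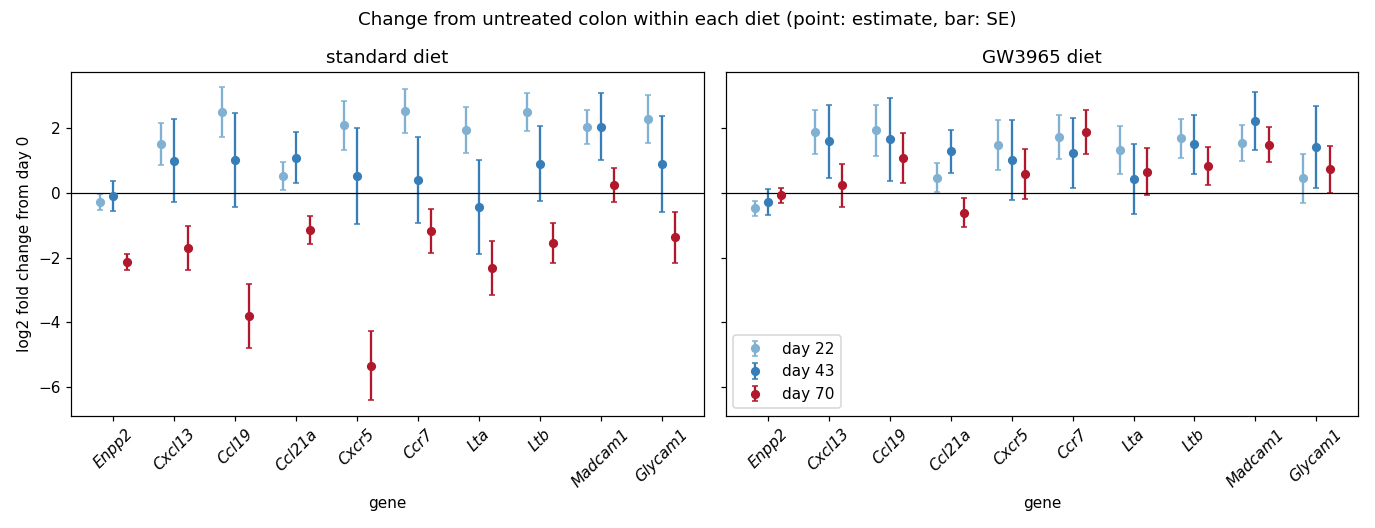
Log2 fold change from day 0 (y axis) of each gene (x axis) at days 22, 43 and 70 on the standard diet (left) and the GW3965 diet (right); points are estimates and bars SE, and the 3 days of a diet share its day 0 controls. At day 22 the 8 genes from Cxcl13 to Glycam1 other than Ccl21a lay between 1.51 and 2.54 on the standard diet, and at day 70 Cxcr5 was at -5.34 there and at 0.59 on the GW3965 diet.

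Some other genes of the same pathways rose at day 22 on both diets. Their counts stand beside 7.77% of all genes that passed on the standard diet and 12.6% on GW3965, and no test of a list was run. Of 15 genes of the lymphotoxin, TNF and noncanonical NF-kB pathway, 6 rose and 0 fell on the standard diet and 5 rose and 0 fell on the GW3965 diet. Tnf, the inflammatory relative of the lymphotoxins, rose by 3.70 ± 0.55 on the standard diet (edgeR's quasi-likelihood test, adjusted p = 0.000928) and by 4.40 ± 0.55 on GW3965 (adjusted p = 8.22e-05 in edgeR), from 0.639 ± 0.516 and 0.813 ± 0.294 CPM to 10.7 ± 4.67 and 24 ± 12 CPM. All 3 treated mice exceeded all 4 controls on each diet. Tnfsf11, the TNF family ligand known as RANKL, rose on the standard diet by 3.23 ± 0.61 (edgeR, adjusted p = 0.00338; higher in 3 of 3 mice). Ltbr, which encodes the lymphotoxin receptor itself, did not pass, at 121 ± 6.98 CPM on the standard diet at day 22 against 119 ± 9.65 CPM at day 0.

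Among 21 genes of venule adhesion and leukocyte homing, 11 rose and 0 fell on the standard diet at day 22, and 5 rose and 0 fell on the GW3965 diet. Icam1, the endothelial ligand of the integrin LFA-1, rose by 1.43 ± 0.25 on the standard diet (edgeR's quasi-likelihood test, adjusted p = 0.00219) and by 2.12 ± 0.26 on GW3965 (edgeR, adjusted p = 7.8e-05), with every treated mouse above every control. Vcam1, a ligand of alpha4 integrins, rose by 1.37 ± 0.31 on the standard diet (edgeR, adjusted p = 0.011; not passed without STD day 22 replicate 3, with higher levels in 3 of 3 mice). Chst2, a sulfotransferase that helps make the sugar recognised by L-selectin, rose on the standard diet by 1.20 ± 0.26 (edgeR, adjusted p = 0.00866) with levels of 12.3 ± 0.522 CPM at day 22 and 5.75 ± 2.25 CPM at day 0, higher in 3 of 3 mice, and turned to -0.62 with a ribosomal slope of its own in each group. On GW3965 the integrin genes Itgb2 and Itgal, which encode both chains of LFA-1, rose by 2.05 ± 0.45 and 2.34 ± 0.53 (edgeR, adjusted p = 0.00503 and 0.00653), higher in 3 of 3 mice.

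Of 13 other chemokine and receptor genes of lymphoid and gut homing, 4 rose and 0 fell on the standard diet and 5 rose and 0 fell on GW3965. Cxcr4, the receptor for CXCL12, rose by 2.26 ± 0.39 on the standard diet and by 2.12 ± 0.40 on GW3965 (edgeR's quasi-likelihood test, adjusted p = 0.00209 and 0.00193). The ligand and receptor pair Cxcl16 and Cxcr6, which acts on T cells, rose as well, Cxcl16 by 1.56 ± 0.28 and 2.12 ± 0.29 and Cxcr6 by 2.52 ± 0.47 and 2.46 ± 0.48, with all 3 treated mice above the controls on each diet. With a ribosomal slope of its own in each group the standard diet values of Cxcr4 and Cxcr6 turned to -0.75 and -0.87. Lysophosphatidic acid receptors and enzymes, the pathway of the Enpp2 product, were counted in the same way. Of 13 genes, 2 rose on the standard diet (Lpar6 by 0.76 ± 0.20 and Pla1a by 1.76 ± 0.47) and 0 on the GW3965 diet in edgeR, where the median of the list was -0.13 against 0.02 over all genes. Pla1a overlapped between the groups and did not pass without STD day 22 replicate 2 or 3 or without control 22d-1, 43d-1 or 43d-2, and Lpar6 did not pass without STD day 22 replicate 1 or 3 or control 22d-1 or 43d-2.

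Lymphocyte markers were higher at day 22 in the same samples, where 7.77% of all genes passed and 26.9% did not overlap on the standard diet and 12.6% and 48.2% on GW3965. The 6 B cell markers, of which Cd79a was the most abundant, summed to 283, 568 and 397 CPM at day 22 on the standard diet and to 48.1, 33.0, 205 and 61.0 CPM in the controls, and to 253, 457 and 432 CPM against 102, 133, 88.5 and 58.2 CPM on GW3965. The 7 T cell markers, led by Cd3d, summed to 88.8, 169 and 119.7 CPM against 11.2, 15.6, 38.9 and 12.7 CPM on the standard diet. Of the T cell markers 5 of 7 rose on the standard diet and 7 of 7 on GW3965, while 0 of 6 B cell markers passed in edgeR on either diet although all 6 separated the groups on the standard diet. Follicular dendritic cell markers, of which Clu was the most abundant, summed to between 552 and 886 CPM on the standard diet at day 22. In its controls they summed to between 199.9 and 424 CPM. Of the 5 markers 3 passed as higher, Clu, Mfge8 and Fcgr2b. Cr2 and Fcer2a did not pass, although all 5 separated the groups. On GW3965 the sums overlapped, at 414, 758 and 474 CPM against 252 to 417 CPM, and 1 of 5, Fcgr2b, passed as higher. The part of these cell types in the levels of the 10 genes was not tested.

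Between diets at day 22 none of the 10 genes passed the test. The largest differences were lower levels on GW3965 of Ccr7, with 13.4, 19 and 15.2 CPM against 13.2, 40.8 and 36.6 CPM on the standard diet (log2 fold change -1 ± 0.69), and of Glycam1, with 3.15, 10.6 and 5.21 CPM against 10.1, 11.9 and 14.8 CPM (-0.98 ± 0.78). For both, samples of the diets overlapped. Enpp2 differed by -0.03 ± 0.25. With edgeR's quasi-likelihood test 0 of 10 genes passed and 0 had an unadjusted p under 0.05, where 0.135% of all genes passed, and DESeq2 called 0. The diets overlapped for all 10 genes, against 23.7% of all genes that did not overlap, and 2 of 10 fold changes were positive. Endothelial and stromal markers also differed between these samples: all 5 blood endothelium markers, led by Pecam1, were lower on GW3965 without overlap, with sums of 123, 122 and 82.8 CPM against 188, 162 and 185 CPM, as were 2 of 2 mesothelium and 3 of 6 fibroblast markers. None of these passed in edgeR, and their part in the levels of the 10 genes was not tested.

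At day 43 the homing genes were above untreated colon in most samples, with wide spread on the standard diet. Ccl21a, the T zone chemokine, had 66.7, 531 and 185 CPM on the standard diet and 294, 428 and 361 CPM on GW3965. Ltb had 18.7, 75.6 and 104 CPM on the standard diet and 91.9, 135 and 56.1 CPM on GW3965. Replicate 1 of the standard diet, the sample with the RNA integrity number of 2.6, was the lowest of its group for Ccl21a, Ltb and 6 further genes. Madcam1 had 2.33, 22.5 and 7.99 CPM on the standard diet and 24.3, 14.8 and 10.6 CPM on the GW3965 diet, against 4.86, 5.45, 3.97 and 4.27 CPM in the GW3965 controls.

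Against day 0, Madcam1 had the largest log2 fold change of the 10 genes on both diets at day 43, 2.06 ± 1.04 on the standard diet and 2.23 ± 0.88 on GW3965. The GW3965 value was 1.71 without GW day 43 replicate 1 and 3.24 without replicate 3. Without STD day 43 replicate 2 the value of Madcam1 on the standard diet was -0.42, and the other 7 positive values of that diet turned negative too, from -0.19 for Ltb to -1.48 for Glycam1. With edgeR's quasi-likelihood test 0 of 10 genes passed on the standard diet, where 0% of all genes passed, 0 had an unadjusted p under 0.05 and DESeq2 called 0. On GW3965 0 of 10 passed in edgeR, where 0.938% of all genes passed, and DESeq2 called 0. There 1 gene (Madcam1, unadjusted p = 0.02, adjusted p = 0.251 in edgeR) had an unadjusted p under 0.05, as did 2322 of all genes. Lta was the only gene whose groups did not overlap on the standard diet, with 1.37, 2.20 and 4.08 CPM against 0.754, 0.331, 1.32 and 0.198 CPM, where 48.4% of all genes did not overlap. On GW3965 the groups did not overlap for all 10 genes, 9 higher and Enpp2 lower, where 57.5% of all genes did not overlap.

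Day and ribosomal percentage moved together at day 43, since its 6 samples had at least 10.0% ribosomal protein counts and the controls at most 6.51%. The fitted fold changes of day 43 therefore depend on the ribosomal term, and without it 6 of 10 genes passed on the standard diet and 7 on GW3965, among 9396 and 7731 of all genes, and the log2 fold change of Lta on the standard diet turned from -0.43 ± 1.45 to 1.94. Of the other pathway genes, Cxcl16 rose on GW3965 at day 43 by 2.27 ± 0.45 (edgeR's quasi-likelihood test, adjusted p = 0.0162; higher in 3 of 3 mice), and it did not pass without GW day 43 replicate 1, 2 or 3.

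Between diets at day 43, 9 of 10 fold changes were positive, with a median of 0.73 against -0.03 over all genes. Cxcr5 had 13.7, 16.4 and 12 CPM on GW3965 and 1.96, 11.6 and 7.45 CPM on the standard diet, and was the only gene whose groups did not overlap, where 10.9% of all genes did not overlap. Its log2 fold change was 0.95 ± 0.83. Glycam1 had the largest, 1.37 ± 0.80, with overlapping samples, and Enpp2 differed by -0.03 ± 0.26. Without STD day 43 replicate 2 Glycam1 was at 2.78 and Enpp2 at 0.31. Enpp2 was at -0.69 without GW day 43 replicate 2 and at -1.92 under the setting that moved it most. With edgeR's quasi-likelihood test 0 of 10 genes passed and 0 had an unadjusted p under 0.05, where 0.0293% of all genes passed, and DESeq2 called 0. Without STD day 43 replicate 2, the sample with 531 CPM of Ccl21a, 1 gene (Ccl21a) passed. The number of all genes that passed rose there from 5 to 285. With a ribosomal slope of its own in each group 7 of the 9 positive values turned negative, from -0.31 for Ccr7 to -4.45 for Cxcl13.

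The diet effect was also compared between days. With edgeR's quasi-likelihood test 0 of 10 genes passed for the change of the diet effect from day 0 to day 22, where 0.0235% of all genes passed, and 0 passed from day 0 to day 43 and from day 22 to day 43, where 0% of all genes passed. In all 3 of these tests 0 genes had an unadjusted p under 0.05 and DESeq2 called 0. From day 22 to day 43 the difference was positive for 10 of 10 genes, with a median of 1.16, and smallest in p for Glycam1 (unadjusted p = 0.0512, adjusted p = 0.949 in edgeR).

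**Figure D4:**
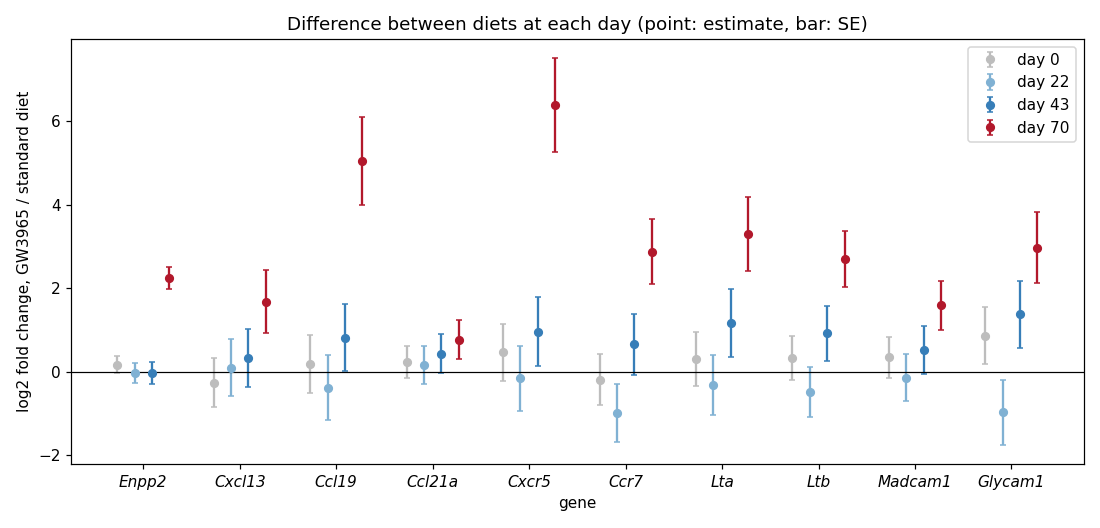
Log2 fold change of the GW3965 diet over the standard diet (y axis) for each gene (x axis) at days 0, 22, 43 and 70; points are estimates and bars SE. At days 0, 22 and 43 the points lie between -1 and 1.37, and at day 70, which was used to choose the genes, between 0.76 and 6.39.

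At day 70 the standard diet samples had few counts of Cxcr5, Ccl19 and Lta, and most GW3965 samples had more, with wide differences between the 3 GW3965 mice. These samples were used to choose the genes, so the following values are a description. Cxcr5 had 3 estimated counts in each of the 3 standard diet samples (0.158, 0.131 and 0.127 CPM), and 78, 878 and 28 counts (3.99, 32.3 and 0.989 CPM) on GW3965. GW day 70 replicate 2 held most of that RNA. Summed over the mice, 984 counts stood against 9, a ratio of 95.7 after scaling by library size with a 95% interval of 50.2 to 209.8 that covers counting error only.

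Ccl19 was nearly as low, with 4, 9 and 1 counts (0.210, 0.392 and 0.0423 CPM) on the standard diet and 4.25, 13 and 0.953 CPM on GW3965, a ratio of 28.9 with a counting interval of 17.1 to 53.4. Lta had 0, 1 and 8 counts on the standard diet and 14, 52 and 9 counts on GW3965, a ratio of 7.29 with a counting interval of 3.64 to 16.6. The diets overlapped for Lta in CPM, at 0, 0.0435 and 0.338 against 0.717, 1.92 and 0.318. For Ccl19 each GW3965 sample exceeded each standard diet sample.

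Cxcl13 had 1.89, 12.6 and 6.72 CPM on the standard diet and 9.06, 48.1 and 5.09 CPM on GW3965. Its diets overlapped, and only replicate 2 of GW3965 stood out. Ccl21a differed least, with 84.2, 52.2 and 62.1 CPM on the standard diet and 113, 125 and 107 CPM on GW3965. Ccr7 had 1.68, 2.96 and 1.10 CPM against 4.76, 23.8 and 6.39 CPM, and Ltb 1.42, 5.14 and 4.65 CPM against 11.1, 38.6 and 8.26 CPM. For these 3 genes replicate 2 was the highest GW3965 sample. Of the venule genes, Madcam1 had 4.31, 5.57 and 3.26 CPM on the standard diet and 12.1, 16.1 and 13.3 CPM on GW3965, and Glycam1 0.894, 1.35 and 0.592 CPM against 3.89, 5.67 and 12.3 CPM. Glycam1 was highest in replicate 3 and Enpp2, given above, in replicate 1, so the 3 GW3965 mice were ordered differently for Enpp2, the venule gene Glycam1 and the lymphocyte genes.

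The log2 fold changes of GW3965 over the standard diet at day 70 were 2.24 ± 0.26 (SE) for Enpp2, 6.39 ± 1.12 for Cxcr5, 5.05 ± 1.05 for Ccl19, 3.30 ± 0.90 for Lta, 2.97 ± 0.86 for Glycam1, 2.88 ± 0.77 for Ccr7, 2.70 ± 0.68 for Ltb, 1.67 ± 0.75 for Cxcl13, 1.59 ± 0.58 for Madcam1 and 0.76 ± 0.46 for Ccl21a. All 10 were positive, with a median of 2.79 against 0.02 over all genes. The samples did not overlap for 8 of the 10 genes, where 19.1% of all genes did not overlap, and 1.83% of all genes passed in edgeR; since this contrast chose the genes, nothing is read from these counts. Without GW day 70 replicate 2 the values were 4.09 for Cxcr5, 3.81 for Ccl19, 2.31 for Lta, 1.77 for Ccr7, 1.67 for Ltb and 0.13 for Cxcl13, and without STD day 70 replicate 3 that of Lta was 5.41. With a ribosomal slope of its own in each group the value was 0.21 for Enpp2, and it was negative for 6 genes, from -0.59 for Ccr7 to -8.04 for Lta. Glycam1 moved the other way, to 6.33 under the setting that moved it most.

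Compared with untreated colon, most of the 10 genes were lower at day 70 on the standard diet. On that diet the log2 fold changes from day 0 were -2.14 ± 0.25 for Enpp2, -5.34 ± 1.06 for Cxcr5, -3.80 ± 0.99 for Ccl19, -2.33 ± 0.83 for Lta, -1.71 ± 0.68 for Cxcl13 and -1.54 ± 0.61 for Ltb. Madcam1 was the only positive value, at 0.25 ± 0.53, and the median of the 10 genes was -1.63. Without STD day 70 replicate 3 the value of Lta was -4.48, and without replicate 2 that of Madcam1 was -0.002. Without replicate 2 Ccl19 was at -4.57 and Cxcl13 at -2.42. Without control 43d-1 Ccl19 was at -3.04 and Madcam1 at 0.95. Lta was at 0.35 and Madcam1 at -3.14 with a ribosomal slope of its own in each group. The groups did not overlap for 6 genes, Enpp2, Cxcl13, Ccl19, Ccl21a, Cxcr5 and Ltb, all lower, where 43.2% of all genes did not overlap and 33.3% passed in edgeR.

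On the GW3965 diet 8 of the 10 log2 fold changes between day 0 and day 70 were positive, and those of 5 genes depended on 1 mouse for their sign. Enpp2 differed from day 0 by -0.07 ± 0.24, Cxcl13 by 0.24 ± 0.67 and Cxcr5 by 0.59 ± 0.76. Ccr7 (1.90 ± 0.68) and Madcam1 (1.5 ± 0.54) had the highest values and Ccl21a (-0.60 ± 0.44) the lowest, and the median was 0.70. Without GW day 70 replicate 2 the values were -1.73 for Cxcr5, -1.33 for Cxcl13, -0.34 for Lta, -0.22 for Ltb, -0.19 for Ccl19, 0.02 for Enpp2 and 0.76 for Ccr7, and without replicate 3 that of Glycam1 was 0.09. The same 5 genes from Cxcr5 to Ccl19 were negative with a ribosomal slope of its own in each group, from -2.01 for Ltb to -8.63 for Cxcr5. Under the setting that moved each most, Enpp2 was at -2.27 and Glycam1 at 6.30. Enpp2 was at -0.48 without GW day 70 replicate 1 and at 0.19 without replicate 3. The groups did not overlap for 2 genes, Madcam1 higher and Ccl21a lower, where 31.3% of all genes did not overlap and 21.9% passed in edgeR. The comparisons of day 70 with day 0 share their controls with those of days 22 and 43. On both diets, cage, age and time on the diet differ between day 70 and day 0 as well as treatment.

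Other pathway genes, which were not among the 10, were tested at day 70, where 1.83% of all genes passed between diets and 19.1% did not overlap. Of 13 chemokine and receptor genes 3 were higher on GW3965 and 0 lower, of 21 venule genes 1 was higher and 0 lower, and 0 passed of 15 lymphotoxin and TNF genes and of 13 lysophosphatidic acid genes. Cxcl12, a stromal chemokine that retains B cells and plasma cells, rose by 2.07 ± 0.41 (edgeR's quasi-likelihood test, adjusted p = 0.0213), from 34.9 ± 6.01 CPM on the standard diet to 142 ± 81.7 CPM. Its receptor gene Cxcr4 rose by 1.79 ± 0.43 (edgeR, adjusted p = 0.0402), from 9.78 ± 3.39 to 29.5 ± 14.3 CPM. Ccr6, the receptor of B cells and T cells for CCL20, rose by 3.99 ± 0.97 (edgeR, adjusted p = 0.0431), from 0.281 ± 0.107 to 4.6 ± 5.59 CPM, and Vcam1 by 2.06 ± 0.35 (edgeR, adjusted p = 0.0167), from 11.1 ± 4.37 to 44.7 ± 18.5 CPM. For each of these 4 genes every GW3965 sample exceeded every standard diet sample. These lists were drawn up with the day 70 results known and do not support the choice of the 10 genes.

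Some markers of lymphocytes also passed between diets at day 70, beside the same shares of all genes, 1.83% that passed and 19.1% that did not overlap. The marker lists were chosen with earlier results of these data known. The B cell sum followed Ccl19 and Cxcr5 over the 26 samples (r = 0.979 and 0.953). These tests therefore restate in part the values that chose the 10 genes and do not support that choice. The 6 B cell markers summed to 5.05, 10.5 and 5.62 CPM on the standard diet and 50.4, 342 and 19.2 CPM on GW3965, highest in the sample that was highest for Cxcr5, Ccl19 and Cxcl13, and the most abundant was Cd79a. All 6 rose, by 4.04 (Cd79a) to 6.74 (Pax5) on the log2 scale, with adjusted p from 0.0186 to 0.0356 in edgeR's quasi-likelihood test and all 3 GW3965 samples above all 3 standard diet samples. The 7 T cell markers summed to 7.52, 20.3 and 14.1 CPM against 49.4, 89.2 and 27.7 CPM, and 2 of 7 rose, Cd247 by 2.32 ± 0.50 and Cd4 by 2.82 ± 0.70. Of 5 follicular dendritic cell markers 2 rose, Cr2 by 7.00 ± 1.24 and Fcer2a by 3.88 ± 0.99, both also carried by B cells, and the groups overlapped for Fcer2a. The list sum, led by Clu, was 279.9, 393 and 313 CPM against 310.1, 563 and 532 CPM. Of 5 dendritic cell markers Itgax (1.36 ± 0.34) and Flt3 (2.14 ± 0.52) rose.

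Muscle, nerve and fat markers varied between single samples of day 70, and of these lists only Sox10 passed between diets. Enteric neuron and glia markers, led by Uchl1, summed to 4.995, 13 and 8.67 CPM on the standard diet and 35.4, 12.3 and 18.7 CPM on GW3965, with all 5 fold changes positive, 4 of 5 higher without overlap and 1 of 5, Sox10, higher by 3.16 ± 0.69 (edgeR's quasi-likelihood test, adjusted p = 0.0294; higher in 3 of 3 samples). Smooth muscle markers, led by Des, summed to 1191, 2544 and 1412 CPM against 5731, 2084 and 3024 CPM. Both sums overlapped between diets, and 0 of 5 smooth muscle, 0 of 5 skeletal muscle and 0 of 5 adipocyte markers passed in edgeR. GW day 70 replicate 1, the sample with the highest Enpp2, also had the most skeletal muscle RNA, 15891 CPM over 5 markers led by Acta1, against 8.41 to 524 CPM in the other 5 samples (9.80 and 22.5 CPM on GW3965). It had the highest adipocyte marker sum (49.5 CPM), the highest blood endothelium sum (445 CPM) and the lowest epithelium sum (2089 CPM). Whether these other tissues account for the day 70 levels of Enpp2 or the homing genes was not tested, and no marker of any list had a mean at or under 0.1 CPM.

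**Figure D5:**
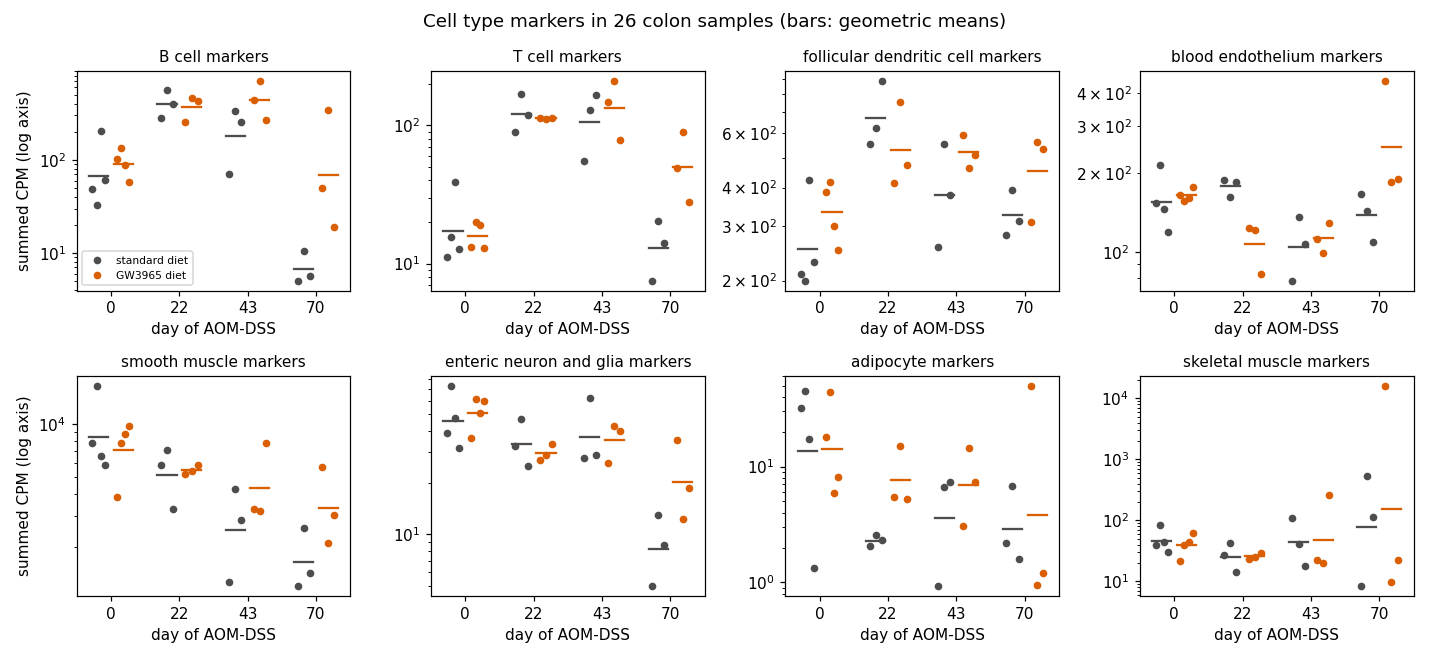
Summed CPM of marker genes of 8 cell types (y axes, log scale) by day of AOM-DSS (x axis) on the standard diet (grey) and GW3965 diet (orange); points are samples and bars geometric means. B cell markers at day 70 lay between 5.05 and 10.5 CPM on the standard diet and between 19.2 and 342 CPM on GW3965, and 1 GW3965 sample of day 70 had 15891 CPM of skeletal muscle markers.

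The day 70 counts of the other lists depend on single samples. In all 17 of their genes passed. Without STD day 70 replicate 1 or replicate 3 the number was 0, without replicate 2 it was 2, without GW day 70 replicate 1 it was 10, and without GW day 70 replicate 3 it was 35. With only the day 70 samples in the fit and no ribosomal term 0 passed, and with a ribosomal slope of its own in each group 1 passed and most of the 17 fold changes turned negative.

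The remaining marker lists were also compared between day 0 and day 70, where 33.3% of all genes passed on the standard diet and 21.9% on GW3965, and a share near these does not mark a list. Smooth muscle markers fell on the standard diet between day 0 and day 70 for 5 of 5 genes and enteric neuron and glia markers for 5 of 5, with Sox10 down by -4.01 ± 0.68 and Cnn1, a smooth muscle gene, by -2.65 ± 0.48 (edgeR's quasi-likelihood test, adjusted p = 0.000308 and 0.00052; lower in 3 of 3 samples). On GW3965 1 of 5 smooth muscle and 3 of 5 enteric markers fell. Of the 6 B cell markers, 6 fell on the standard diet by day 70 and 0 changed on GW3965 in edgeR, and of the 7 T cell markers 0 changed on the standard diet and 5 rose on GW3965. Of 5 adipocyte markers 4 fell on the standard diet and 0 changed on GW3965, and of 5 skeletal muscle markers 2 and 4 passed as higher. No skeletal muscle marker separated the groups on either diet, and the GW3965 sums were 15891, 9.80 and 22.5 CPM against 21.3 to 61.2 CPM in the controls, so that 1 sample of 3 was high. Whether these changes differ between the diets was not tested. The day 70 contrast given above compares the diets at that day only.

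The counts that follow stand beside the same shares of all genes. Lymphatic endothelium markers, led by Lyve1, gave 2 higher and 2 lower of 5 on the standard diet and 2 higher and 1 lower on GW3965 at day 70 against day 0. Blood endothelium markers, led by Pecam1, gave 0 higher and 1 lower, and 2 higher and 0 lower, of 5. Fibroblast markers, led by Col3a1, gave 1 higher and 1 lower, and 2 higher and 0 lower, of 6. Group 3 innate lymphoid markers, led by Il1r1, gave 1 higher and 1 lower, and 2 higher and 1 lower, of the 4 tested. Mesothelium markers, led by Msln, gave 1 higher on each diet of the 2 tested, dendritic cell markers 3 lower on the standard diet and 2 higher on GW3965 of 5, follicular dendritic cell markers 2 lower on the standard diet and 1 higher on GW3965 of 5, and epithelium markers, led by Krt8, 0 of 5 on either diet in edgeR.

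Pathway genes at day 70 against day 0 moved in both directions, where 33.3% of all genes passed on the standard diet and 21.9% on GW3965, and shares near these do not mark the lists. On the standard diet 0 chemokine genes rose and 4 of 13 fell, among them Cxcl12 (-1.48 ± 0.38) and Ackr4 (-3 ± 0.49), a scavenger of CCL19 and CCL21, and on GW3965 5 rose and 2 fell, with Ackr4 again lower (-2.76 ± 0.50). Of 21 venule genes 3 rose and 7 fell on the standard diet and 7 rose and 3 fell on GW3965, and the selectin genes Selp (3.13 ± 0.48 and 3.04 ± 0.49) and Sele (3.87 ± 0.63 and 4.23 ± 0.67) and Icam1 (1.86 ± 0.24 and 2.16 ± 0.25) rose on both diets in 3 of 3 mice. Of 15 lymphotoxin and TNF genes 2 rose on the standard diet and 3 rose and 1 fell on GW3965, with Tnf up by 3.83 ± 0.53 and 3.56 ± 0.54. Of the 13 lysophosphatidic acid genes 3 rose and 3 fell on the standard diet and 4 rose and 1 fell on GW3965, and Lpar1, a receptor for the Enpp2 product, fell by 1.86 on the standard diet and by 1.26 on GW3965 (edgeR's quasi-likelihood test, adjusted p = 4.16e-05 and 0.00102), from 91.8 ± 24.7 and 84.1 ± 5.82 CPM to 25.3 ± 2.23 and 37.8 ± 9.89 CPM, lower in 3 of 3 mice.

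Across the 26 samples the 9 homing genes correlated with each other, and 6 of these samples were those of day 70, whose levels chose the genes. Pearson's r of log2 CPM between pairs of the 9 genes ran from 0.559 (Cxcr5 and Madcam1) to 0.943 (Ccl19 and Ltb), with 0.940 for Lta and Ltb and for Ccr7 and Ltb. Enpp2 correlated with the 9 at r between 0.148 (Madcam1) and 0.693 (Cxcr5), and at Spearman's rho between -0.104 and 0.233. The 26 points share 8 groups and, at days 0, 22 and 43, cages, so these are descriptions without a p. After group means were subtracted, r between pairs of the 9 genes ran from 0.164 (Cxcl13 and Ccl21a) to 0.875 (Ccr7 and Ltb), and that of Enpp2 with the 9 from -0.133 (Glycam1) to 0.463 (Ccl21a).

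The same measure over the same 26 samples, those of day 70 included, set the genes beside cell type markers. Ccl19 followed the B cell sum (r = 0.979) and Cxcr5 did so too (r = 0.953, and 0.941 after group means were subtracted), while Ccr7 and Ltb correlated with the T cell sum at r = 0.938 each and Ltb with the B cell sum at 0.939. After group means were subtracted, r was 0.814 with T cells and 0.873 with B cells for Ccr7, and 0.912 and 0.881 for Ltb. Madcam1 and Glycam1 followed the follicular dendritic cell sum, which Clu led (r = 0.886 and 0.789). Of the 14 lists Enpp2 had its highest r with the enteric neuron and glia sum (0.781, rho 0.757), then with the smooth muscle sum (0.651), and r = 0.537 with rho 0.042 for the B cell sum. After group means were subtracted, r with the enteric sum was 0.463, and it was further from 0 for the blood endothelium (0.619), fibroblast (0.571), epithelium (-0.553), mesothelium (-0.525) and adipocyte (0.501) sums. All are over the 26 samples and share their groups, and none was tested.

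The genes of all 17049 tested whose log2 CPM was most like that of Enpp2 over the 26 samples were Asic2 (r = 0.917), Rragb (r = 0.890) and Htr3a (r = 0.884). Those nearest Cxcr5 were Spib (r = 0.991), Ighd (r = 0.986) and Cr2 (r = 0.979), and those nearest Ccl19 were Cd79b (r = 0.982), Ptprcap and Vpreb3 (r = 0.974 each). Ltb was nearest to Ptprcap (r = 0.987), Haao (r = 0.983) and Gimap3 (r = 0.982), Lta to Ptprcap, Fcrla and H2-Ob (r = 0.948 each), and Ccr7 to Napsa, Traf1 and Il16 (r between 0.960 and 0.966). Cxcl13 was nearest to Stap1, Cd83 and Fcrla (r between 0.939 and 0.947) and Ccl21a to Gng2, Ccdc69 and Tnfsfm13 (r between 0.865 and 0.886). Madcam1 was nearest to Rac2, B4galnt1 and Apbb1ip (r between 0.928 and 0.935), and Glycam1 to Fut7 and Il27ra (r = 0.822 each) and to Madcam1 (r = 0.803).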

How the data were processed

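The authors quantified paired-end reads of 26 samples per transcript with kallisto on GRCm38 cDNA and deposited the estimated counts (expected counts), without normalisation. The deposited TPM values are those counts divided by effective length and scaled by kallisto to the same sum in each sample. The kallisto version, cDNA release and strand setting are not given in the sources used here. Expected counts were summed by gene symbol of GENCODE vM21 and rounded, and 116728 of 119414 transcripts (97.8%) matched; unmatched ones held 0.615% to 0.999% of counts. Genes with low counts were removed (filterByExpr over 8 groups), leaving 17049 of 35928. Totals per sample ran from 18195345 to 41522204, so at CPM under 1 counting error is large; intervals cover counting error only. Counts were scaled by TMM and fitted in edgeR 4.0.16 (limma 3.58.1, R 4.3.3; quasi-likelihood F-test) with the 8 groups and the centred percentage of counts on 88 ribosomal protein genes, and p-values were adjusted by Benjamini-Hochberg over all genes tested at a false discovery rate of 0.05. DESeq2 1.42.0 was an alternative, and tables and figures were made in Python 3.11.15 (matplotlib 3.10.9, numpy 2.4.6, pandas 2.3.3). The code was tested on simulated data.

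The members and lists were chosen with earlier results of these data known. Named genes are all 10 members, list genes that passed in a diet contrast (at most 10 per list), at most 3 list genes of smallest p per time contrast, and the 3 genes nearest to each member by Pearson's r; Ltbr was named after its values were seen, and 1 list gene that passed is counted in its list and not reported here by itself. Replicate numbers come from sample titles. Over 13 pairs of diets with the same number, deviations correlated at -0.07 on average (-0.37 to 0.20), so numbers do not pair the mice. Alternatives were 12 settings and leaving out each of 26 samples; 2 settings were chosen after seeing the data. Promoters were from RefSeq; proteins were not used here.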

Additional observations from a re-analysis of the deposited data

Results flagged for a closer look

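In the 2 groups of 4 samples, 24 series of values were examined for a sample far from the other 3, by the gap to its nearest neighbour over the range of the group against Dixon's critical value at 95%. That gave 48 checks, and chance gives about 1 in 20. Standard diet control 43d-1 was the highest of its group for Madcam1 (7.70 CPM, ratio 0.91), for the sum of B cell markers (205 CPM, ratio 0.837), of T cell markers (38.9 CPM, ratio 0.842) and of follicular dendritic cell markers (424 CPM, ratio 0.865). Standard diet control 22d-2 was the highest for the sum of lymphatic endothelium markers (230.2 CPM, ratio 0.869). The cause of these high values was not tested.

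For 2 genes the diets were ordered in opposite ways on different days, with no overlap of samples on either day. Of all genes, 23.7% did not overlap between diets at day 22 and 19.1% at day 70. The share of all genes reversed in this way is not given here, so the count does not mark these 2 genes. Cxcl12 was lower on GW3965 than on the standard diet in all samples of day 22 (log2 fold change -0.63, 90.9 ± 20.5 against 139 ± 18.5 CPM) and higher in all samples of day 70 (2.07). Chst2, the sulfotransferase of L-selectin ligands, was lower at day 22 (-0.65, 7.63 ± 2.14 against 12.3 ± 0.522 CPM) and higher at day 70 (1.06). The difference between the days was not tested.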

How the results depend on the processing

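The members were refitted under 12 other settings and without each of the 26 samples. At days 0 and 22 the diet count stayed at 0 throughout, as did all counts of the change in diet effect. At day 43 leaving out 1 sample gave 0 to 1. The cause was not tested for any of the changes that follow. The member counts do not mark the members by themselves, since the number of all genes called also moved. At day 22 DESeq2 called 2037 of all genes on the standard diet and 2936 on GW3965, against 1325 and 2150 in edgeR. With 1 sample left out, 404 to 1387 of all genes passed at day 22 on the standard diet. For day 22 against day 0 on the standard diet (3 members), the count was 6 without the ribosomal term, 7 with the RNA integrity number in its place, 0 with the ribosomal percentage interacting with diet and day, 7 with DESeq2, 7 with only the groups compared and no ribosomal term (2 choices changed at once), 5 without the sample of RNA integrity number 2.6, and 0 to 4 with 1 sample left out. For day 43 on the standard diet (0) it was 6, 5 and 4 without the ribosomal term, with the integrity number and with only the groups compared and no ribosomal term. On GW3965, day 22 (0) gave 5, 5, 3, 8 and 2 without the ribosomal term, with the integrity number, with DESeq2, with only the groups compared and no ribosomal term and without the low-integrity sample, and day 43 (0) gave 7, 8 and 10 without the ribosomal term, with the integrity number and with only the groups compared and no ribosomal term. With the replicate number as a block, day 22 on the standard diet gave 4 (Ccl19 added), day 22 on GW3965 gave 1 (Cxcl13) and the day 70 lists 1, although the numbers do not pair the mice.

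For the 17 list genes that passed between diets at day 70, the count was 26 with the integrity number, 1 with the interaction, 33 with DESeq2, 11 without the filter, 0 with only the groups compared and no ribosomal term, 28 without the low-integrity sample, 11 without the sample with conflicting labels, 10 without the sample of highest skeletal muscle markers (chosen after seeing the data), and 0 to 35 with 1 sample left out. Of all genes, 312 passed at day 70, and 6 to 1466 with 1 sample left out.

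Of named results that passed, signs turned only under the interaction with the ribosomal percentage. That setting has the form of the paper's model, where diet, time and the percentage of ribosomal RNA interact. The percentage used here is that of counts on ribosomal protein genes, which may differ from the paper's measure. The setting leaves few degrees of freedom per group. There, on the standard diet at day 22, Ccr7 was -0.70, Madcam1 -1.47, Cxcr4 -0.75, Cxcr6 -0.87 and Chst2 -0.62, at day 70 Tnfrsf1b was -0.0893, and on GW3965 at day 70 Cxcr6 was -1.05. Between diets at day 70 it gave Cxcl12 -1.31, Ccr6 -3.73, Vcam1 -1.50, Ms4a1 -6.21, Cd79a -5.14, Cd79b -5.82, Pax5 -10.14, Blk -4.22, Cd247 -1.82, Cd4 -3.70, Cr2 -9.73, Fcer2a -8.27, Itgax -0.0264 and Flt3 -0.54. Lta on the standard diet at day 43 was 1.94 without the ribosomal term and 1.94 with only the groups compared and no ribosomal term, against -0.43. Member values that did not pass or had no test also turned, under the interaction for 8 of 10 between diets at day 0 and 7 of 10 at day 43, and when 1 sample was left out, most often without STD day 43 replicate 2 (8 of the day 43 values on the standard diet turned negative) and GW day 70 replicate 2 (6 of the values against day 0 changed sign). Of all member fold changes at days 0 to 43 under another setting, 721 kept their sign and their side of the threshold. With the same sign, 81 came to pass and 1 no longer passed. Another 33 changed sign without passing in either fit, and 4 changed sign and passed in the main fit or in the other. TPM in place of CPM kept STD day 70 lowest for 9 members, but the highest group changed for 6 of 10 and only 3 to 6 of the 8 groups kept their rank. Where CPM is under 1, as for Cxcr5, Ccl19 and Lta at day 70 on the standard diet, depth limits the fold change.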
